A study of Mus musculus with 12 samples.

Results

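The 52 genes described here encode the machinery that copies DNA and the regulators that let a cell enter S phase, the stage of the cell cycle in which the genome is duplicated. They were picked by gene symbol from a list made with earlier results of these data known, and not by a threshold on any value. All 52 were present among the 55487 genes of the tables, and all 52 were among the 17909 genes that passed the low-count filter. Lung messenger RNA was sequenced from 12 mice to follow bleomycin fibrosis with and without intravenous polymer nanoparticles (NPs). All mice were WT (wild-type) C57BL/6J males aged 10 weeks, and all were given bleomycin, which damages alveolar epithelium and provokes scarring, into the airway through the oropharynx. The dose was 0.0125 U for each animal, or roughly 0.5 U/kg. The 3 groups held 4 mice each: untreated lungs taken 14 days after bleomycin, lungs taken at day 21 after intravenous saline (vehicle), and lungs taken at day 21 after intravenous NPs. The NPs had a poly(lactide-co-glycolide) core under a poly(ethylene-alt-maleic anhydride) surfactant coat and measured 609.22 ± 15.30 nm across, and each of 5 daily retro-orbital doses, on days 14 to 18, held 2 mg. Every comparison is between injured lungs, since none of the groups was free of bleomycin.

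Copying the genome begins before S phase, when the origin recognition complex, Cdc6 and Cdt1 load a ring of 6 Mcm proteins onto origins, a step called licensing that geminin later blocks. Cdc45 and the GINS complex join the ring and turn it into the working helicase, polymerase alpha with primase starts each new strand, and polymerases epsilon and delta extend it while held to DNA by the sliding clamp PCNA. E2F transcription factors and the cyclin E genes govern the entry into this programme, and most of these genes are transcribed mainly in dividing cells. In the injured lung, dividing cells can include alveolar epithelium, fibroblasts, macrophages and endothelium, and whole-lung RNA sums over all of them.

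Because E2F sites are the known control element of this programme, promoters were searched for TTTCCCGC, TTTCGCGC, TTTGCCGC and TTTGGCGC on both strands. The window ran from 250 bases before to 50 bases after the start, in RefSeq promoters on GRCm38.p6, and matches that overlap each other were counted separately. Entries were found for 43 of the 52 genes, and the others were Gmnn, Mcm4, Gins1, Gins2, Gins4, Prim2, Pole, Rfc2 and Ccne2. At least 1 of these words stood in a promoter of 17 of the 43 genes (39.5%), and in 34.0% of their 50 promoters. Counted by promoter, the share was 2.26% over all 32851 promoters of the table. Counted by gene, it was 4.20% over the 12637 tested genes with an entry. Promoter stretches before the start carry the matched letters in capitals and run 5′ to 3′ on the strand of the gene. The opening 4 belong to genes that fell in both comparisons with day 14, and the closing pair to Rfc3 and Gins3, which passed the test in neither.
Mcm5 (chr8:75109332-75109391, + strand): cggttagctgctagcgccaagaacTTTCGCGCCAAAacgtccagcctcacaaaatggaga
Mcm6 (chr1:128359745-128359815, - strand): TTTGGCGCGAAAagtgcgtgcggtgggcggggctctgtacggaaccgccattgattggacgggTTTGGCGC
Cdc6 (chr11:98907987-98908046, + strand): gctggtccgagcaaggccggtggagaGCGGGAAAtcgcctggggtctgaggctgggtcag
Uhrf1 (chr17:56304102-56304161, + strand): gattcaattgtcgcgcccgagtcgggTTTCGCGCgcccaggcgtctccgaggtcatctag
Rfc3 (chr5:151651209-151651238, - strand): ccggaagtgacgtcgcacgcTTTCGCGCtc
Gins3 (chr8:95633507-95633536, + strand): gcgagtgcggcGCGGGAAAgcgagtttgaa

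In the GENCODE M21 gene models the stretches of Mcm5 and Mcm6 lie upstream of the gene, those of Cdc6 and Uhrf1 fall inside the gene outside any exon, and those of Rfc3 and Gins3 lie in an exon of the gene. Mcm5 carried 2 overlapping matches and Mcm6 carried 3. The median log2 change from day 14 to vehicle was −0.65 over the 17 genes with one and −0.59 over the 26 without. For NPs against day 14 the medians were −0.64 and −0.62. With only the 250 bases before the start, the vehicle order turned, with −0.59 over 9 genes with a match and −0.61 over 34 without. The letters CCAAT, found before many genes of dividing cells, stood in 58.0% of the 50 promoters and in 37.4% of all promoters. TTTGAA, the core of the element linked to mitotic genes, stood in 6 of the 50 promoters, against 17.9% of all. Counted by gene, CCAAT stood in 60.5% of the 43 genes and in 42.1% of the tested genes with an entry. For TTTGAA these shares were close to each other, 14.0% and 15.1%. Among 20 mitotic genes with an entry, CCAAT stood in 16, TTTGAA in 15 (9 with only the 250 bases before the start) and an E2F word in 1. A match describes letters and was not tested as a binding site.

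Levels are given in CPM, the expected counts scaled by the library size after TMM scaling, or in TPM, which also corrects for transcript length, where genes are compared with each other. Libraries held between 24138582 and 42714693 expected counts. The floor of 3 counts was 0.0702 to 0.124 CPM, for counting error alone, and the lowest count of any of the 52 genes in any library was 12. The lung markers Sftpc (32558 TPM at day 14), Scgb1a1 (84051) and Ager (2434) were abundant, and none of 105 cell type markers was at 0 TPM in any library. NP replicate 3 stood apart. It was the lowest of the 12 libraries for 34 of the 52 genes and the lowest of its own group for 39, and its 6 neutrophil markers summed to 5523 TPM, where the lowest NP library had 380, day 14 libraries 127 to 326 and vehicle libraries 230 to 542. Vehicle replicate 1 was the lowest of its group for 38 genes and day 14 replicate 4 for 31. Day 14 replicate 2 was the highest of the 12 libraries for 27 of the 52 genes and day 14 replicate 1 for 19.

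**Figure D1:**
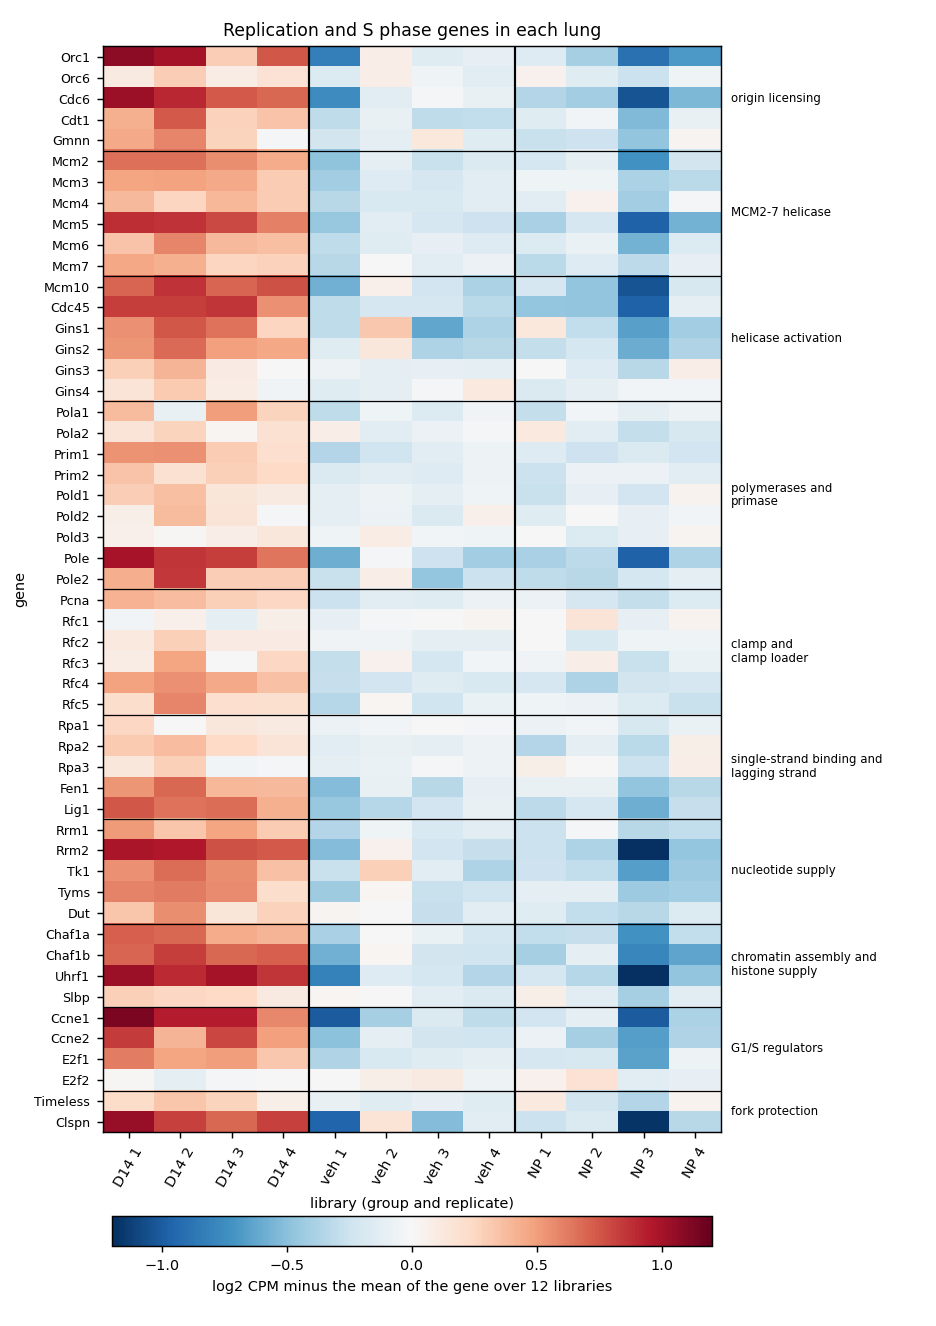
Log2 CPM of each gene minus the mean of that gene over the 12 libraries, with genes in rows grouped by role and libraries in columns (D14, day 14; veh, vehicle at day 21; NP, nanoparticle at day 21; digits are replicate numbers). Red cells mark libraries above the gene's mean and blue cells below it; the 4 day 14 columns are red in most rows, Rfc1 and E2f2 are pale throughout, and NP replicate 3 is the darkest blue column.

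Between day 14 and day 21 the replication genes fell together in the lungs given vehicle. The day 14 lungs were untreated. Time after bleomycin, the injections and the day of collection therefore cannot be told apart in either comparison with day 14. In edgeR's quasi-likelihood test, at a Benjamini-Hochberg adjusted p under 0.05 over all genes, 40 of the 52 fell and 0 rose. Of all genes tested 6.51% fell and 3.79% rose. The 4 vehicle libraries all lay below the 4 day 14 libraries for 40 of the 52, against 10.7% of all genes. The median change was −0.60 on the log2 scale, where the median of all genes was 0.00. Called falls ran from 0.23 (Rfc2) to 1.35 (Ccne1), and 10 genes fell by more than 1: Orc1, Cdc6, Mcm5, Mcm10, Cdc45, Pole, Rrm2, Uhrf1, Ccne1 and Clspn. The summed TPM of the 52 genes was 969 ± 39.6 at day 14 (SD, n = 4) and 722 ± 38.6 with vehicle. In limma on log2 TPM the count was 29, with Orc1, Mcm7, Gins1, Pola1, Pold1, Pole2, Rfc2, Rfc5, Chaf1a, Slbp and Timeless lost. The count was 30 without vehicle replicate 3, 31 without vehicle replicate 1 and 32 without day 14 replicate 1. Replicates are separate mice, and the test sets each group difference against the spread between mice, estimated over all 3 groups. In whole-lung RNA, fewer cells in S phase and less RNA of these genes per cell cannot be told apart.

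In the lungs given NPs, 43 of the 52 genes were below their day 14 level past the threshold and 0 above. Of all genes tested 8.56% were lower and 6.16% higher. The 4 NP libraries all lay below the 4 day 14 libraries for 40 of the 52, against 10.6% of all genes. The median change was −0.63, and called falls ran from 0.22 (Rpa1) to 1.46 (Uhrf1). Summed TPM was 700 ± 49.3. Without NP replicate 3 the count was 40 and the median −0.55. In limma on log2 TPM it was 33, with Orc1, Orc6, Mcm7, Pola1, Pold1, Rfc2, Rfc5, Rpa1, Timeless and Clspn lost. Both sets of changes are measured against the same 4 day 14 libraries, so they are given side by side below and their likeness is not evidence of its own. Orc6, Gmnn and Rpa1 were called with NPs alone, and the difference between NPs and vehicle passed the test for none of the 3. Gins3, Gins4, Pola2, Pold2, Pold3, Rfc1, Rfc3, Rpa3 and E2f2 were called in neither.

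**Figure D2:**
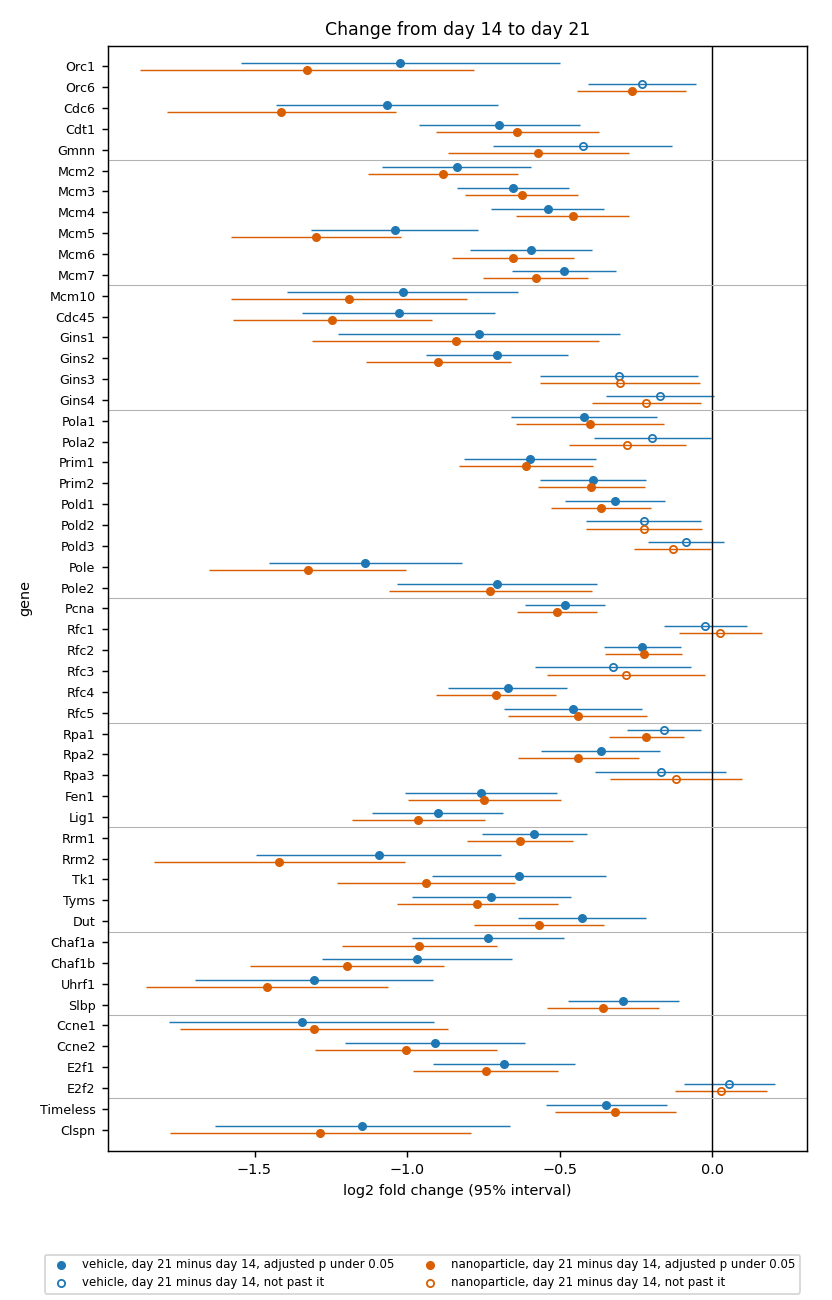
Log2 fold change from day 14 to day 21 with its 95% interval for each gene, vehicle in blue and NP in orange, filled where the adjusted p was under 0.05; genes are grouped by role in the same order as in the heatmap. Most points lie below 0, down to −1.46 for Uhrf1 with NPs. The intervals of Rfc1, Rpa3 and E2f2 include 0 in both comparisons, and those of Gins4 and Pold3 include 0 with vehicle alone.

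Among the 5 licensing genes, Orc1, Cdc6 and Cdt1 fell with vehicle and all 5 fell with NPs. Cdc6 (chromosome 11, 98907801 to 98923940), the ATPase that helps load the Mcm ring, was at 8.53, 7.80, 6.97 and 6.74 CPM in the day 14 libraries, at 2.47, 3.797, 4.12 and 3.92 with vehicle, and at 3.27, 3.12, 2.03 and 2.86 with NPs. Every day 21 library lay below every day 14 library. Cdc6 fell by 1.07 on the log2 scale (SE 0.17, adjusted p = 0.00313) with vehicle and by 1.41 (SE 0.18, adjusted p = 0.000517) with NPs. Orc6, the smallest subunit of the origin recognition complex, was the most abundant gene of the group and moved least. It read 15.5, 17.8, 15.4 and 16.3 CPM at day 14, 12.9, 15.2, 13.9 and 13.3 with vehicle and 14.9, 13.1, 12.1 and 13.9 with NPs. These groups did not overlap with day 14, but their highest libraries came close to the lowest one there. Its changes were −0.23 (SE 0.08, adjusted p = 0.0892) and −0.26 (SE 0.08, adjusted p = 0.0482), and the NP call was lost without any 1 of 11 libraries (adjusted p up to 0.123). Orc1, the subunit whose level follows the cell cycle, was the scarcest of the 52 at 0.985 TPM and fell by 1.02 and 1.33. With vehicle, Orc1 lost its call when day 14 replicate 1, vehicle replicate 1 or vehicle replicate 3 was left out (adjusted p up to 0.0629). Cdt1, the partner of Cdc6 in loading, fell by 0.70 and 0.64. Gmnn, which encodes the Cdt1 inhibitor geminin, changed by −0.43 with vehicle (adjusted p = 0.0623, or 0.0272 without day 14 replicate 4) and fell by 0.57 with NPs, with overlapping groups in both.

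All 6 genes of the MCM2-7 helicase ring fell in both comparisons, with no overlap between groups for any subunit, yet not in proportion. Mcm5 (chromosome 8, 75109569 to 75128439) fell most. Its libraries read 38.3, 37.7, 36.0 and 31.6 CPM at day 14, 15.2, 19.04, 18.1 and 17.5 with vehicle and 15.8, 18.0, 10.6 and 14.0 with NPs. The lowest day 14 library was thus well above the highest later one. Mcm5 fell by 1.04 (SE 0.13, adjusted p = 0.00151) and by 1.299 (SE 0.13, adjusted p = 0.000375). Mcm7 (chromosome 5, 138164583 to 138172422), the most abundant subunit over the 12 libraries, fell least with vehicle. It was at 44.8, 43.5, 38.8 and 39.1 CPM at day 14, at 25.8, 32.4, 29.6 and 30.8 with vehicle and at 25.9, 29.2, 26.0 and 30.3 with NPs. Its groups were separate but closer together than those of Mcm5. Mcm7 fell by 0.49 (SE 0.08, adjusted p = 0.00336) and 0.58 (SE 0.08, adjusted p = 0.000973), and on the TPM scale its call was lost in both comparisons. The other subunits fell by 0.84 and 0.88 (Mcm2), 0.65 and 0.62 (Mcm3), 0.54 and 0.46 (Mcm4) and 0.59 and 0.65 (Mcm6).

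Per length, the 6 subunits summed to 148 ± 7.30 TPM at day 14, 98.6 ± 9.04 with vehicle and 96.6 ± 9.26 with NPs. Mcm5 made up 14.97% ± 0.699 of that sum at day 14, 11.01% ± 0.430 with vehicle and 9.51% ± 1.19 with NPs. Its share in the day 14 libraries (14.2 to 15.6%) did not overlap with its share at day 21 (8.05 to 11.4%). Mcm7 went the other way, from 20.8% ± 1.73 to 27.0% ± 1.21 and 25.8% ± 3.25. The most abundant subunit exceeded the scarcest by 1.92-fold ± 0.1004 at day 14, 2.704-fold ± 0.107 with vehicle and 2.81-fold ± 0.687 with NPs. These shares are descriptions without a test. For Mcm7 they also carry a change in the length that the authors' quantification assigned to the gene: counts per TPM, relative to the median gene of the library, were 83.6% of the day 14 value with vehicle and 83.8% with NPs, with no overlap between groups.

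**Figure D3:**
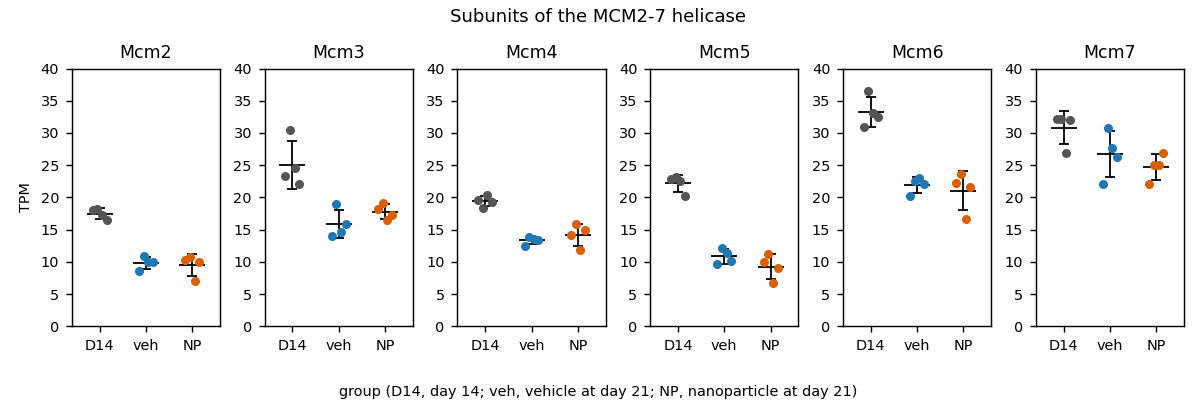
TPM of each MCM2-7 subunit by group, with 1 point per lung, the mean as a wide bar and the SD (n = 4) as whiskers, on a common linear axis from 0. All points at day 21 lie below all points at day 14 for Mcm2 to Mcm6, while the vehicle points of Mcm7 overlap with its day 14 points and its NP points lie just below them.

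The genes that switch the loaded ring on did not all pass the test. Mcm10, Cdc45, Gins1 and Gins2 fell in both comparisons, whereas Gins3 and Gins4 passed the test in neither. Cdc45, the factor that completes the helicase, read 7.09, 7.13, 7.23 and 5.83 CPM at day 14, 3.24, 3.47, 3.46 and 3.19 with vehicle and 2.89, 2.87, 2.03 and 3.70 with NPs. Day 14 replicate 4 was the lowest of its group and still above all later libraries. Cdc45 fell by 1.03 (SE 0.15, adjusted p = 0.00231) and 1.24 (SE 0.15, adjusted p = 0.000517). Gins4, a subunit of the 4-membered GINS complex, read 20.6, 23.03, 19.8 and 18.0 CPM at day 14, 16.8, 17.1, 18.3 and 20.1 with vehicle and 16.5, 17.2, 18.2 and 18.2 with NPs, and the groups overlapped. The changes of Gins4 were −0.17 (SE 0.08, adjusted p = 0.198) and −0.22 (SE 0.08, adjusted p = 0.0933, or 0.0484 without day 14 replicate 4). Its partner Gins3 changed by −0.30 (adjusted p = 0.121) and −0.30 (adjusted p = 0.11). Gins2 fell by 0.71 and 0.90, Gins1 by 0.76 and 0.84, and Mcm10, which helps fire origins, by 1.01 and 1.19. Gins1 lost its vehicle call without any 1 of 6 libraries (adjusted p up to 0.119) and its NP call without day 14 replicate 3 or NP replicate 2 or 4 (up to 0.065). In TPM, Gins4 made up 57.9% ± 0.192 of the 4 GINS transcripts at day 14, 65.5% ± 5.08 with vehicle and 66.4% ± 4.04 with NPs. The exons of Gins2 share 67.3% of their bases with Gse1 on the opposite strand.

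The 9 polymerase and primase genes ranged from a fall by more than 1 on the log2 scale to no detected change. Pole, the catalytic subunit of polymerase epsilon, which copies the leading strand, fell most. It was at 13.4, 12.2, 11.96 and 10.5 CPM at day 14, at 4.48, 6.66, 5.66 and 5.05 with vehicle and at 5.13, 5.40, 3.44 and 5.22 with NPs. No day 21 library reached the lowest day 14 library. Pole fell by 1.14 (SE 0.15, adjusted p = 0.00159) and by 1.33 (SE 0.15, adjusted p = 0.000503). Pold3, an accessory subunit of polymerase delta, had the smallest change. It read 28.4, 27.4, 28.7 and 29.9 CPM, then 26.2, 28.8, 26.5 and 26.2 with vehicle and 27.0, 24.3, 25.4 and 27.8 with NPs, with overlap in both comparisons. Its changes were −0.09 (SE 0.06, adjusted p = 0.364) and −0.13 (SE 0.06, adjusted p = 0.152). The 2 primase subunits Prim1 (0.60 and 0.61) and Prim2 (0.39 and 0.40) fell, as did Pole2 (0.71 and 0.73), the delta catalytic subunit Pold1 (0.32 and 0.37) and the alpha catalytic subunit Pola1 (0.42 and 0.40), whose groups overlapped. The non-catalytic Pola2 (−0.20 and −0.28) and Pold2 (−0.22 and −0.22) did not pass the test, though Pola2 passed with NPs without NP replicate 1 (adjusted p = 0.0194). With vehicle, Pold1 lost its call when any of the same 3 libraries as for Orc1 was left out (adjusted p up to 0.0686). That of Pola1 was lost without any 1 of 5 libraries (up to 0.106), and its NP call without any 1 of 4 (up to 0.101). As a description without a test, the TPM of Pole2 over that of Pole was 1.35 ± 0.206 at day 14, 2.17 ± 0.645 with vehicle and 2.46 ± 0.433 with NPs, with some overlap between day 14 and vehicle libraries.

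Pcna (chromosome 2, 132249162 to 132253314), the sliding clamp, was the most abundant of the 52 genes at 122 ± 3.83 TPM at day 14. Its libraries read 108, 105, 98.9 and 96.4 CPM at day 14, 67.9, 73.7, 73.4 and 77.1 with vehicle and 77.3, 70.5, 66.4 and 72.5 with NPs. The groups were far apart relative to their spread. Pcna fell by 0.48 (SE 0.06, adjusted p = 0.00159) and 0.51 (SE 0.06, adjusted p = 0.000503). Of the 5 subunits of replication factor C, which opens the clamp and loads it, Rfc2, Rfc4 and Rfc5 fell and Rfc1 and Rfc3 did not pass the test. Rfc4 read 7.59, 7.95, 7.42 and 6.92 CPM at day 14, 4.48, 4.61, 4.89 and 4.77 with vehicle and 4.72, 4.20, 4.65 and 4.71 with NPs. Each later group was narrow and well below day 14. Rfc4 fell by 0.67 (SE 0.09, adjusted p = 0.00181) and 0.71 (SE 0.09, adjusted p = 0.000722). Rfc1, the large subunit, read 53.0, 56.6, 50.5 and 57.2 CPM at day 14, 50.6, 53.5, 54.2 and 55.5 with vehicle and 54.3, 60.5, 50.6 and 56.0 with NPs. All 3 groups overlapped. Its changes were −0.02 (SE 0.06, adjusted p = 0.85) and 0.03 (SE 0.06, adjusted p = 0.811). Rfc2 fell by 0.23 and 0.22 and Rfc5 by 0.46 and 0.44, and Rfc3 changed by −0.32 (adjusted p = 0.0967, past the threshold only with a replicate block) and −0.28 (adjusted p = 0.128). The Rfc2 call was lost without any 1 of 7 libraries with vehicle (adjusted p up to 0.0856) and without NP replicate 2 or 4 with NPs (up to 0.0704). That of Rfc5 was lost without vehicle replicate 1 or 3 (up to 0.0652) and without NP replicate 4 (0.0523).

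Of the genes that protect single-stranded DNA and finish the lagging strand, Lig1 and Fen1 fell most. Lig1, the ligase that seals Okazaki fragments, read 27.2, 25.4, 25.8 and 21.8 CPM at day 14, 11.8, 12.8, 13.8 and 15.3 with vehicle and 13.1, 14.1, 10.8 and 13.4 with NPs. The later groups did not reach the lowest day 14 library. Lig1 fell by 0.90 (SE 0.10, adjusted p = 0.00121) and 0.96 (SE 0.10, adjusted p = 0.000375), and Fen1, the flap nuclease, by 0.76 and 0.75. Rpa1, the large subunit of the single-strand binding protein RPA, was the most abundant gene of the group and moved least with vehicle. It read 80.6, 68.1, 74.8 and 73.1 CPM at day 14, 64.7, 66.3, 68.2 and 66.7 with vehicle and 64.8, 66.6, 59.7 and 64.5 with NPs. The highest vehicle library just passed the lowest day 14 library, and the NP group did not overlap with day 14. Its changes were −0.16 (SE 0.06, adjusted p = 0.0909) and −0.22 (SE 0.06, adjusted p = 0.0237). The vehicle value passed without day 14 replicate 2 (adjusted p = 0.0361), and the NP call was lost without any 1 of 5 libraries (up to 0.0691). Rpa2 fell by 0.37 and 0.44, the former call being lost without any 1 of 6 libraries (up to 0.0772), and Rpa3 changed by −0.17 (adjusted p = 0.292) and −0.12 (adjusted p = 0.452).

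All 5 nucleotide supply genes fell in both comparisons. Rrm2, the S phase subunit of ribonucleotide reductase, which makes deoxynucleotides, read 24.3, 24.01, 20.8 and 20.5 CPM at day 14, 8.56, 12.7, 10.5 and 10.15 with vehicle and 10.3, 9.51, 4.73 and 8.91 with NPs. NP replicate 3 was the lowest of all 12 libraries. Rrm2 fell by 1.09 (SE 0.19, adjusted p = 0.00478) and 1.42 (SE 0.19, adjusted p = 0.00102). Its partner Rrm1, the large subunit, was the more abundant transcript and fell less. It read 66.8, 59.2, 64.9 and 58.0 CPM at day 14, 36.8, 45.1, 41.2 and 42.96 with vehicle and 39.2, 46.2, 37.1 and 38.3 with NPs, again with no overlap. Rrm1 fell by 0.58 (SE 0.08, adjusted p = 0.00191) and 0.63 (SE 0.08, adjusted p = 0.000648). As a description without a test, the TPM of Rrm1 over that of Rrm2 was 1.51 ± 0.105 at day 14, 2.10 ± 0.194 with vehicle and 2.72 ± 0.949 with NPs. The NP libraries ran from 1.98 to 4.09, the highest being NP replicate 3, and overlapped with the vehicle libraries (1.89 to 2.33). Dut, the enzyme that keeps uracil out of DNA, fell least of the 5. It read 14.99, 17.5, 13.2 and 14.5 CPM at day 14, 12.2, 11.9, 9.82 and 10.9 with vehicle and 10.8, 9.72, 9.45 and 10.6 with NPs. Dut fell by 0.43 (SE 0.10, adjusted p = 0.0159, or 0.0592 without vehicle replicate 3) and 0.57 (SE 0.10, adjusted p = 0.00307). The thymidine kinase gene Tk1 fell by 0.63 and 0.94 and the thymidylate synthase gene Tyms by 0.72 and 0.77.

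All 4 genes of chromatin assembly and histone supply fell. Uhrf1 (chromosome 17, 56303321 to 56323486), which carries DNA methylation through replication, read 23.8, 21.7, 23.4 and 21.1 CPM at day 14, 6.66, 10.5, 10.1 and 9.15 with vehicle and 10.16, 9.22, 4.92 and 8.37 with NPs. Its day 21 libraries were all below its day 14 libraries by a wide margin. Uhrf1 fell by 1.31 (SE 0.18, adjusted p = 0.00231) and 1.46 (SE 0.18, adjusted p = 0.000749). Slbp, which binds the stem-loop of histone mRNAs, was the most abundant gene of the group and fell least. It read 37.8, 36.8, 36.5 and 33.4 CPM at day 14, 31.5, 31.1, 28.2 and 27.4 with vehicle and 32.6, 28.3, 23.6 and 28.3 with NPs, with no overlap. Slbp fell by 0.29 (SE 0.08, adjusted p = 0.0425) and 0.36 (SE 0.09, adjusted p = 0.0146), and its vehicle call was lost without any 1 of 9 libraries (up to 0.12). Chaf1a and Chaf1b, subunits of the nucleosome assembly factor CAF-1, fell by 0.74 and 0.97 with vehicle and by 0.96 and 1.197 with NPs. The exons of Chaf1a share 52.5% of their bases with Ubxn6 on the opposite strand.

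The G1/S regulators held both the largest fall with vehicle and E2f2, for which no change was detected. Ccne1 (chromosome 7, 38097984 to 38107534), which encodes cyclin E1, the activator of Cdk2 at S phase entry, read 6.18, 5.43, 5.44 and 4.20 CPM at day 14, 1.41, 2.14, 2.50 and 2.28 with vehicle and 2.41, 2.62, 1.41 and 2.17 with NPs. All later libraries were below all earlier ones. Ccne1 fell by 1.35 (SE 0.20, adjusted p = 0.00273) and 1.31 (SE 0.21, adjusted p = 0.00178). Its paralogue Ccne2 fell by 0.91 and 1.00, and the activator E2f1 by 0.68 and 0.74. E2f2 (chromosome 4, 136172394 to 136196057), an activator of the same family, read 31.3, 28.6, 30.7 and 30.9 CPM at day 14, 30.9, 32.5, 33.4 and 29.6 with vehicle and 32.1, 34.9, 28.2 and 29.0 with NPs, and all 3 groups overlapped. Its changes were 0.06 (SE 0.07, adjusted p = 0.642) and 0.03 (SE 0.07, adjusted p = 0.814). Per length, E2f1 and E2f2 were close to each other at day 14 (11.705 and 10.465 TPM).

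The fork protection genes Clspn and Timeless both fell, by unlike amounts. Clspn, the adaptor that relays stalled forks to the checkpoint kinase Chk1, read 9.84, 8.44, 7.71 and 8.44 CPM at day 14, 2.47, 5.36, 3.33 and 4.38 with vehicle and 3.99, 4.24, 2.11 and 3.805 with NPs. Its spread within the later groups was wide, without reaching day 14. Clspn fell by 1.15 (SE 0.22, adjusted p = 0.00843) and 1.28 (SE 0.23, adjusted p = 0.00359). Timeless, which travels with the fork, read 29.2, 31.6, 30.1 and 26.3 CPM at day 14, 23.5, 22.6, 23.4 and 22.6 with vehicle and 27.1, 21.4, 19.6 and 25.8 with NPs. The vehicle group lay below day 14 and the NP group overlapped with it. Timeless fell by 0.35 (SE 0.09, adjusted p = 0.0304) and 0.32 (SE 0.09, adjusted p = 0.0352), and each call was lost without any 1 of 7 libraries (adjusted p up to 0.0854 and 0.0946).

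The question of whether NPs changed these genes is answered by the NP lungs against the vehicle lungs at the same day, and no difference was detected. In edgeR's quasi-likelihood test 0 of the 52 genes passed the threshold, and the background was 0% of the 17909 genes tested in either direction, with 762 of them at an unadjusted p under 0.05. DESeq2 called 0 of the 52, and 2 lower and 16 higher genes over the whole table. For 0 of the 52 did the 4 NP libraries all lie below the 4 vehicle libraries, a pattern found in 1.75% of all genes. The median difference was −0.05, and 38 of 52 differences were negative, beside 8816 of 17909 over all genes. Without NP replicate 3 the median was −0.004 and 27 of 52 were negative. Without vehicle replicate 1 the median was −0.08 and 45 of 52 were negative. The count of negative differences thus depended on which lung was left out. Every 95% interval lay within 1 log2 unit of 0 and 40 of 52 lay within 0.5, and the widest bounds were −0.88 (Orc1) and 0.498 (Ccne1). Smaller differences than these bounds are not excluded.

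The smallest p-values of that comparison belonged to Tk1, Mcm5, Cdc6, Chaf1a and Gins2. Tk1 alone was under 0.05 before adjustment, and its adjusted p in edgeR was 0.999. It read 8.88, 12.99, 9.79 and 8.27 CPM with vehicle and 8.99, 8.68, 6.76 and 7.90 with NPs. The groups overlapped. Its difference was −0.30 (95% interval −0.60 to −0.01), and −0.23 without NP replicate 3. Cdc6 had the most negative difference at −0.35 (−0.73 to 0.04), which was −0.22 without that library. Mcm5 differed by −0.26 and −0.13, Chaf1a by −0.23 and −0.13 and Gins2 by −0.19 and −0.12, with and without that library. Mcm4 had the most positive difference, 0.08 (−0.10 to 0.27), which was 0.17 without that library, under 0.05 before adjustment and not after it. Without that library Ccne1 had the most positive difference, 0.19, against 0.04 with it.

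**Figure D4:**
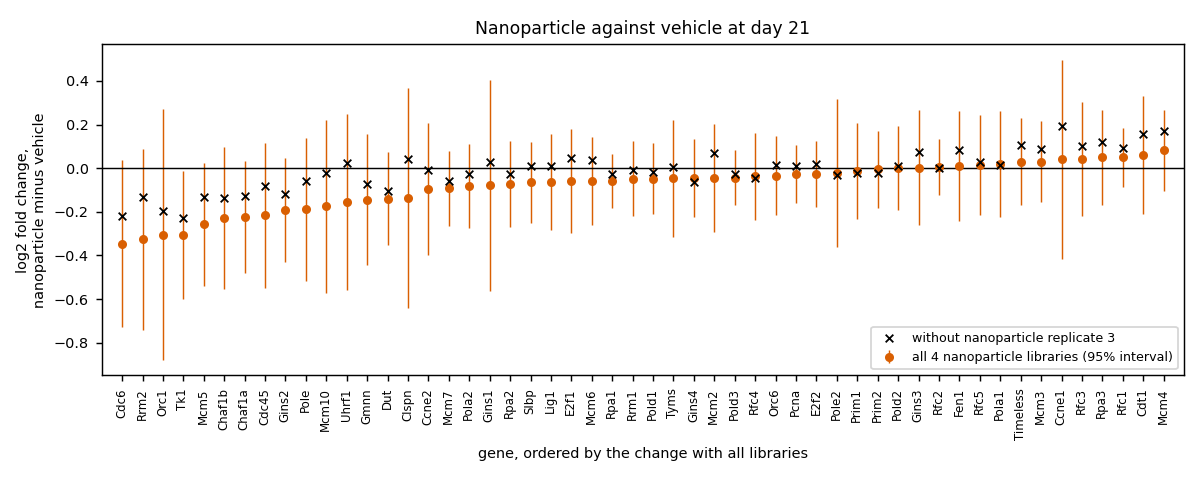
Difference between NP and vehicle lungs at day 21 on the log2 scale for each of the 52 genes, ordered by size, with 95% intervals from all 4 NP libraries (orange) and the value without NP replicate 3 (crosses). All intervals but that of Tk1 include 0, and the crosses of most genes lie above the orange points.

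Genes of the same processes outside the 52 were counted from 4 further lists. Of 34 other replication genes, 13 fell with vehicle and 15 with NPs, and 0 rose in either. Ticrr, which helps Cdc45 onto origins, fell by 1.16 and 1.27 (from 3.77 ± 0.362 to 1.68 ± 0.344 and 1.55 ± 0.359 CPM, SD, n = 4), and the clamp-binding Pclaf fell by 1.01 and 1.37. Asf1b, a histone chaperone, fell by 0.92 and 1.21, the repair nuclease gene Exo1 by 0.92 and 1.06, and Chtf18, of an alternative clamp loader, by 0.74 and 1.11. The median of the list was −0.23 and −0.20.

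Of 22 other nucleotide synthesis genes, 7 fell and 1 rose with vehicle, and 5 fell and 2 rose with NPs. The CTP synthase gene Ctps fell by 0.71 and 0.72. Dctpp1 fell by 0.57 and 0.63, its vehicle call being lost without day 14 replicate 1 or 3 (adjusted p up to 0.0553), and Nme2 fell by 0.42 and 0.48. The riser in both comparisons was Rrm2b, which encodes the small subunit of ribonucleotide reductase used outside S phase. It rose by 0.41 (SE 0.10, adjusted p = 0.0185) and 0.55 (SE 0.10, adjusted p = 0.00332), from 37.3 ± 5.42 CPM to 49.5 ± 2.64 and 54.5 ± 5.07, with no overlap in either. Rrm2 thus fell while its counterpart Rrm2b rose. The vehicle call of Rrm2b was lost on the TPM scale and when any of 3 libraries was left out: day 14 replicate 3, vehicle replicate 1 and vehicle replicate 3 (adjusted p up to 0.0584). The mitochondrial thymidine kinase gene Tk2 rose by 0.26 with NPs (adjusted p = 0.032; 0.23 and 0.0584 with vehicle), a call lost without any 1 of 4 libraries (up to 0.106), while the S phase kinase gene Tk1 fell.

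Of 32 other G1/S control genes, 14 fell and 1 rose with vehicle, and 14 fell and 2 rose with NPs. Cyclin A2 (Ccna2) fell by 1.296 and 1.44, the repressor E2f7 by 1.06 and 1.21, Mybl2 by 1.04 and 1.03, and Cks1b by 0.90 and 0.98. Cdkn1b, which encodes the cyclin-dependent kinase inhibitor p27, rose by 0.41 (SE 0.06, adjusted p = 0.0031 and 0.00178) in both, from 75.1 ± 3.36 CPM to 99.7 ± 8.35 and 99.8 ± 4.37, with no overlap. The retinoblastoma gene Rb1, which restrains E2F factors, rose by 0.30 with NPs (adjusted p = 0.0171; 0.12 and 0.296 with vehicle), a call lost without day 14 replicate 3 or NP replicate 4 (adjusted p up to 0.0573).

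All 23 mitosis genes fell in both comparisons, with medians of −1.202 and −1.40, larger in size than the −0.60 and −0.63 of the replication genes. This difference between the lists was not tested. Cdk1, the kinase that drives entry into mitosis, fell by 1.39 (SE 0.22, adjusted p = 0.00325) and 1.71 (SE 0.22, adjusted p = 0.000875), from 16.7 ± 1.83 CPM to 6.37 ± 1.92 and 5.11 ± 1.49. Kif2c fell by 1.44 and 1.49, Tpx2 by 1.23 and 1.60, Ube2c by 1.43 and 1.59 and Kif20a by 1.39 and 1.56. With NPs against vehicle 0 genes of these 4 lists passed the test.

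**Figure D5:**
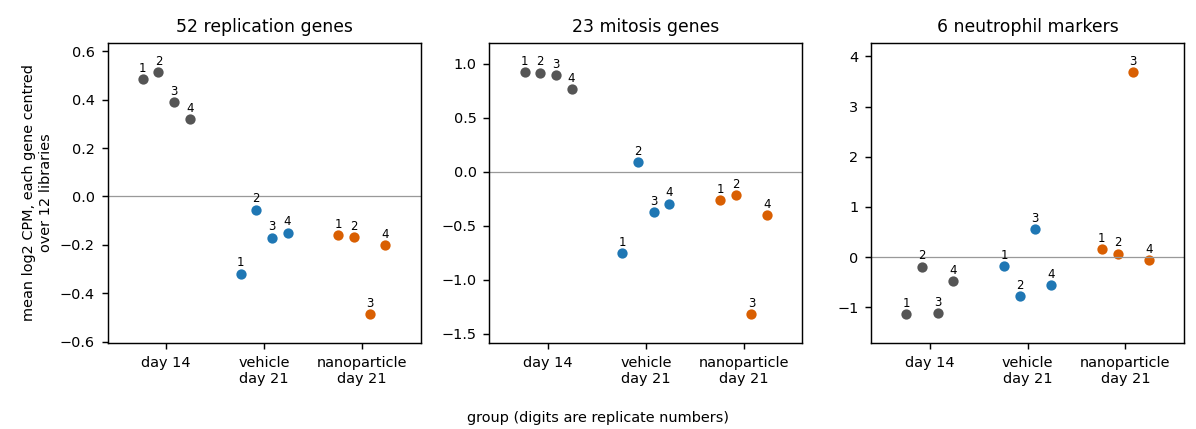
Mean log2 CPM of the 52 replication genes, 23 mitosis genes and 6 neutrophil markers in each lung, each gene centred over the 12 libraries, by group; digits are replicate numbers and the 3 panels have separate axes. The day 14 lungs sit at 0.320 to 0.515 for the replication genes and the day 21 lungs at −0.487 to −0.0539, and NP replicate 3 is the lowest point of the left and middle panels and the highest of the right one.

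The same lungs were at the bottom for both programmes. The score of the 52 genes, the mean of their centred log2 CPM, was lowest in NP replicate 3 (−0.487) and next in vehicle replicate 1 (−0.319), and the mitosis score was also lowest in these 2 lungs (−1.32 and −0.749). Vehicle replicate 2 was the highest day 21 lung for both (−0.0539 and 0.0876).

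Markers of some cell types moved over the same week. Of 6 markers of transitional epithelium, keratin-8-positive cells seen during alveolar repair, 6 fell with vehicle and 5 with NPs. The list was Krt8, Krt7, Krt19, Cldn4, Sfn and Lgals3, and whether these genes came from such cells alone was not tested. Their summed TPM ranged from 1138 to 1274 at day 14, 819 to 939 with vehicle and 798 to 1034 with NPs, highest there in replicate 3. Of 8 fibroblast markers, 4 fell and 1 rose in each comparison. Those that fell were Col1a1, Col1a2, Col3a1 and Lum, and the other 4 differences were positive in each comparison. The summed TPM of the 8 was 2485 to 2817, 2550 to 3205 and 2680 to 2932. Of 8 monocyte and interstitial macrophage markers, 3 fell with vehicle (C1qa, C1qb and C1qc), and 2 fell and 1 rose with NPs, and the summed TPM was 840 to 1001, 520 to 661 and 526 to 903. None of the markers was at 0, and the part of these cell types in the fall of the replication genes was not tested. Of 5 megakaryocyte and platelet markers, 4 rose with NPs and 0 with vehicle, and the summed TPM was 35.4 to 47.7, 38.0 to 57.3 and 57.1 to 82.9. For NPs against vehicle all 5 differences were positive, and 0 of the 5 passed the test. All differences were also positive for 8 monocyte and interstitial macrophage, 8 endothelial, 6 neutrophil, 6 B and plasma cell and 7 erythroid markers. All were negative for 6 alveolar type 1, 7 smooth muscle and pericyte and 5 cardiac muscle markers. The remaining lists were mixed, and 0 of these markers passed the test. Of 6 alveolar type 1 markers 2 fell, and of 6 airway markers 2 rose, in each comparison. Of 7 smooth muscle and pericyte markers 1 fell with vehicle and 2 with NPs, and 1 of 7 alveolar macrophage markers rose in each. No alveolar type 2 marker fell and 2 of 8 rose in each comparison, and of 8 endothelial markers 0 changed with vehicle and 1 rose with NPs. The 12 immediate early genes, which respond to handling of tissue, summed to 506 to 1394 TPM at day 14, highest in replicate 2. They summed to 464 to 634 with vehicle and 550 to 796 with NPs, with 2 called lower with vehicle and 0 with NPs. Of 12 mitochondrially encoded genes, 2 rose with vehicle and 4 with NPs. The part of either list was not tested.

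Reads of a gene and of a partner on the opposite strand can be told apart only if counting used strand, which is not given in the sources used here. Of the 52 genes, 18 share exonic bases with another gene in GENCODE M21, 12 with one at 1 TPM or more, and 6 share over 10% of their bases with such a gene: Ccne2, Chaf1a, Gins2, Rfc2, Rfc4 and Rfc5. Their values are uncertain, and by more than the shared percentage where the partner is abundant. Rfc4 (9.17 TPM over the 12 libraries) shares 194 of 1533 exonic bases with Eif4a2 at 449 TPM. Below the 10% limit, Cdc45 (3.81 TPM) shares 209 of 3506 with Ufd1 at 56.7 TPM, so its values are uncertain too. The size of any such error was not tested. The processed copy Pcna-ps2 was listed at 1.62 TPM.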

How the data were processed

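Messenger RNA of whole lung (5 lobes) was sequenced as 151-base pairs of reads from 12 mice. The deposited expected counts and TPM were made by the authors with cutadapt 4.8, STAR 2.7.8a and RSEM 1.3.3 on GRCm38, with FastQC 0.11.8 and MultiQC 1.20, per the submitters' processing notes. The annotation release and strand setting are not given in the sources used here. FPKM values were not used. The expected counts were already whole numbers, 4 entries that name no gene summed to 0, and 21732 genes were at 0 throughout.

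Genes were filtered with filterByExpr (minimum count 10, minimum total 15), scaled by TMM and fitted over all 12 libraries with edgeR 4.0.16 (robust quasi-likelihood test, R 4.3.3, statmod 1.5.0), with Benjamini-Hochberg adjustment over 17909 genes at 0.05. The scripts were checked on simulated data. Scores used log2 CPM with a prior count of 2. Alternatives used DESeq2 1.42.0, limma 3.58.1 on log2 TPM, RLE factors, no filter, a replicate block, only the 8 libraries compared, and each library left out. Replicate numbers name different mice and did not pair the samples.

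Named genes were, per role, the most abundant in TPM, those of largest and smallest change from day 14 to vehicle, and any called between NP and vehicle. Of other lists, up to 4 called genes of largest change and those called against the majority were named, and any gene named beyond this was chosen after its values were seen. A gene that this rule names is not reported here. The 52 genes and the lists were chosen with earlier results of these data known. Gene coordinates are from GENCODE M21 (GRCm38).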

Additional observations from a re-analysis of the deposited data

Results flagged for a closer look

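In 165 groups of 4 values examined (CPM of each gene and the scores), 14 held a lung that stood far from its 3 group mates relative to the range of the group, and chance alone gives about 1 in 20. At day 14, replicate 4 was lowest for Mcm3 (38.5 CPM, others 42.9 to 43.7), for Cdc45 (5.83, others 7.09 to 7.23) and for the mitosis score (0.769, others 0.899 to 0.925). Replicate 2 of that group was highest for Rfc2 (38.98, others 34.1 to 34.7) and Rfc5 (20.2, others 15.4 to 15.6). With vehicle, replicate 2 was highest for Cdt1 (8.17, others 7.04 to 7.08) and Pold3 (28.8, others 26.2 to 26.5), and replicate 1 was highest for Gins3 (4.30, others 4.16 to 4.18).

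With NPs, 5 of the 6 cases were replicate 3. It was lowest for Pole (3.44 CPM, others 5.13 to 5.40), for Chaf1a (7.15, others 9.67 to 9.76), for the score of the 52 genes (−0.487, others −0.201 to −0.161) and for the mitosis score (−1.32, others −0.397 to −0.214), and it was highest for the neutrophil score (3.69, others −0.0527 to 0.157). Rfc4 was lowest in NP replicate 2 (4.20, others 4.65 to 4.72).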

How the results depend on the processing

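The counts of genes called were 40 with vehicle, 43 with NPs and 0 for NPs against vehicle. They were 40, 42 and 0 with RLE factors, 39, 42 and 0 without the filter, 40, 38 and 0 with only the 8 libraries compared, 41, 44 and 0 in DESeq2, and 29, 33 and 0 in limma on log2(TPM + 1) or log2(TPM + 0.1). With each library left out they ran from 30 to 40, from 37 to 43 and at 0. Of the 40 and 43 calls, 27 and 32 were kept under every alternative run. Over all genes, DESeq2 called 2 lower and 16 higher with NPs against vehicle. The genes lower with vehicle numbered 1166, against 714 and 669 in limma with 1 and 0.1 added and 492 at the lowest with a library left out; the higher ones numbered 679, against 337, 326 and 212, and 1146 in DESeq2. With NPs 1533 were lower, against 1000, 973 and 837, and 970 with only 8 libraries; 1103 were higher, against 607, 604 and 495, and 702. Against day 14, values near 0 changed sign for 3 results with a library left out: Rfc1 with vehicle (−0.0557 to 0.0135), Rfc1 with NPs (−0.0208 to 0.0789) and E2f2 with NPs (−0.0334 to 0.0843). For NPs against vehicle, the sign differed among these fits for 26 of 52 genes. With the window cut to the 250 bases before the start, 9 in place of 17 genes held an E2F word. The cause of the other shifts was not tested.

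A replicate block gave 41, 43 and 0 calls, with Rfc3 gained with vehicle, and Orc6 lost and Pola2 gained with NPs. Deviations of same-numbered lungs of different groups correlated at −0.0744 to 0.148 over 12 pairs, 2 of them over 0.1. Those of differently numbered lungs of different groups spanned −0.155 to 0.151, a range that holds all of the same-numbered values. Of the 12 libraries, 4 had their best partner at their own number.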

Other observations

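After the data were seen, counts per TPM, relative to the median gene of each library, were compared as a measure of the transcript length assigned to a gene. For Mcm7 this was 83.6% of the day 14 value with vehicle and 83.8% with NPs, with all day 21 libraries below all day 14 libraries. A shortening by more than 0.2 on the log2 scale without overlap was found for 39 of 16091 genes (0.242%) with vehicle and for 48 (0.298%) with NPs. On mean TPM the Mcm7 change was −0.21 and −0.32, and on counts −0.49 and −0.58. Ccne1 was at 85.5% with NPs, without overlap, and at 93.0% with vehicle, with overlap. Timeless was at 91.2% and 89.0%, with overlap in both. With NPs, Clspn (77.2%), Cdc6 (84.2%), Orc1 (86.0%), Pole (116.1%) and Chaf1a (116.5%) shifted more than Timeless, each with overlap.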
